A study of Mus musculus with 12 samples.

Results

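The comparison described here is that of transcript levels in UV-exposed and control mouse skin, read from the input libraries of a study of N6-methyladenosine (m6A) in photoaged skin. It used 6 of the 12 libraries of the series, 3 labelled control and 3 labelled UV, chosen by library type and label alone; the other 6 are m6A antibody-enriched (IP) libraries of the same skin samples and are set beside single results only. Each input library was made from total RNA of skin with a stranded mRNA kit, without the antibody step. The strain, sex, age and body site of the mice, the type, dose and number of UV exposures, and the hour of tissue collection are unknown here, since no label states them. Whether a group's samples are separate animals is also unstated, so the p-values measure the spread between these samples, which may be technical. The table held 49492 genes, of which 24099 had enough reads to be tested.

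Skin is a layered tissue. Keratinocytes divide at the base of the epidermis, differentiate upwards and end as a cross-linked cornified layer, while sebaceous glands, hair follicles and resident immune cells sit between them and fibroblasts build the dermis below. Ultraviolet light is absorbed by DNA, where it forms pyrimidine dimers that are removed by nucleotide excision repair or bypassed by specialised polymerases, and it activates the p53 pathway. In mouse epidermis the resident lymphocytes are dendritic gamma delta T cells, which live beside the Langerhans cells, the antigen-presenting cells of that layer. Skin also runs a circadian clock, a loop in which the activators of the Arntl and Clock families switch on the Per, Cry and Nr1d repressors, which then switch the activators off.

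The libraries held between 24126662 reads in genes (control 2) and 67060422 (UV 3), and the correlation of log2 values within a group was between 0.986 and 0.995. Between the groups it was 0.974 to 0.991, so the 2 ranges overlapped. On a multidimensional scaling plot the first axis held 55.2% of the spread and separated the 3 control from the 3 UV libraries, with control 2 farthest out. Mitochondrial genes took 0.572% to 0.952% of reads, with the highest share in control 2. Markers of keratinocytes were abundant in every library, at a summed 14467 to 47912 CPM (a gene's reads scaled to the library's reads in genes) in control and 42967 to 66257 CPM in UV, with 0 of the 6 genes called. Skeletal muscle markers, from the muscle sheet beneath mouse skin, summed to 10224 to 23269 CPM in control and 4469 to 11971 CPM in UV, and fibroblast markers to 8451 to 9422 and 5945 to 6984 CPM. Kidney, liver and lung markers each summed to at most 0.369 CPM in any library. In bulk tissue, fewer cells of a type and less RNA per cell cannot be told apart, and this holds for every gene below.

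Of the 24099 genes tested with edgeR's quasi-likelihood test, 1404 (5.83%) passed a Benjamini-Hochberg adjusted p of 0.05 and are termed called. UV skin had 728 of them higher (3.02% of genes tested) and 676 lower (2.81%). Among called genes the lower ones had the larger changes. Their median log2 change was −0.99, against 0.63 for the higher genes, and 92 fell at least 4-fold where 27 rose as much. Lower calls lay more at low levels, where standard errors were larger. Below 1 CPM 34 were higher and 117 lower (median standard error of genes tested 0.41), and from 1 to 10 CPM 189 and 293 (0.19). From 10 to 100 CPM there were 406 higher and 239 lower calls (0.10). The part of level in the size of the called changes was not tested. Over all genes tested the median was −0.02 and the 25th and 75th percentiles were −0.28 and 0.19. With library size alone as the scale the median of all genes was −0.12, with 455 calls higher and 1019 lower. Higher genes then made up 30.9% of the calls, compared with 51.9% under TMM scaling.

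Single libraries mattered for how many genes were called. Fits that left out 1 of the 6 libraries called between 219 genes (without UV 1) and 2100 genes (without control 3). The count was 319 when UV 2 was dropped, 336 for UV 3, 446 for control 1 and 1244 for control 2. A set of 192 genes, 0.797% of those tested, was called in the fit to all 6 libraries and in every one of these 6 fits, 92 higher and 100 lower. They are named robust below, and the account is built on them. Counts of list members given below stand beside these shares of all genes tested: 3.02% called higher, 2.81% called lower and 0.797% robust. Counts at an unadjusted p below 0.05 in edgeR's test stand beside 6037 such genes among all 24099 tested. A call that is not robust is given with the libraries whose removal ended it and the highest adjusted p over the 6 fits.

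**Figure D1:**
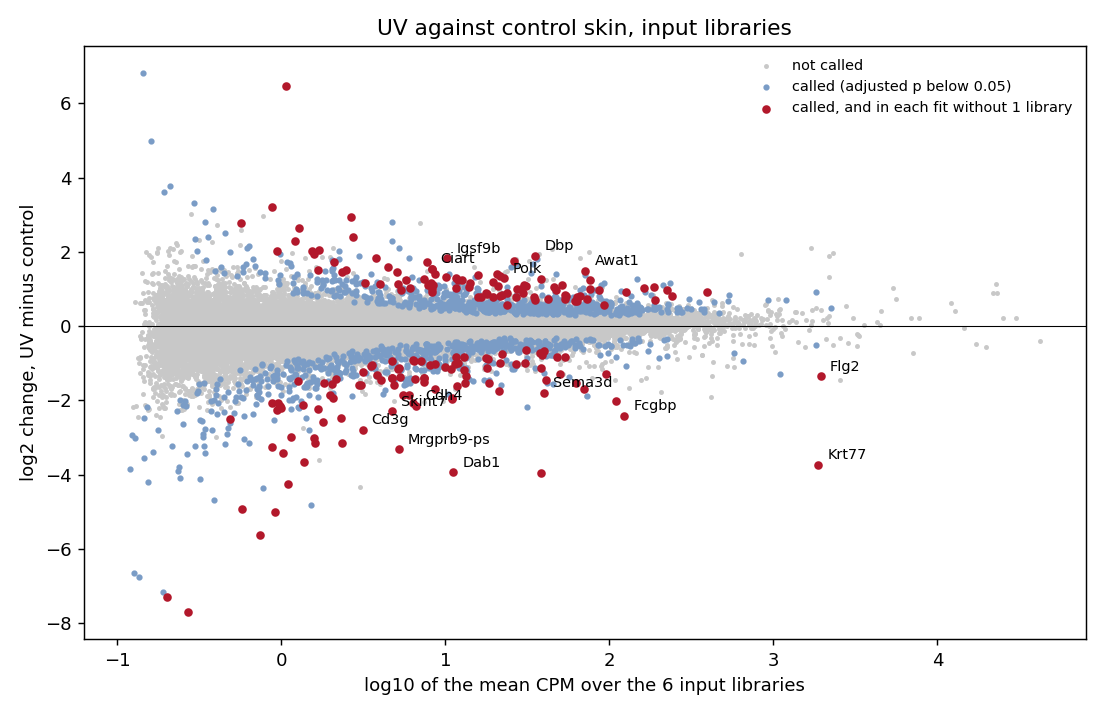
Each point is 1 of the 24099 genes tested, placed by the log10 of its mean CPM over the 6 input libraries and by its log2 change, UV minus control; grey points were not called, blue points were called at an adjusted p below 0.05 in the fit to all 6 libraries, and red points are the 192 robust genes. Krt77, at 2669 to 3963 CPM in control skin, lies far to the right of the other strongly lower genes.

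Among genes with a mean of at least 5 CPM and a name other than a clone identifier, the robust gene that fell furthest was Dab1, which encodes the cytoplasmic adaptor of the reelin receptors. It was at 22.1, 15 and 25.7 CPM in the 3 control libraries and at 2.1, 1.1 and 1.06 CPM in the 3 UV libraries (log2 change −3.93, SE 0.30, edgeR adjusted p = 0.00158, a 15.3-fold difference). No UV value came near a control value. Of the 8 reelin pathway genes tested, Dab1 was the 1 called. The ribosomal RNA-like locus AY036118, left out of the leading genes by its clone name, was at 29.2, 130 and 56.8 CPM in control and 4.74, 4.15 and 5.04 CPM in UV (−3.95, SE 0.50, adjusted p = 0.00656).

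Krt77, a type II keratin of the upper epidermis and the sweat ducts, was the abundant transcript that changed most. Control libraries 1 to 3 held 3833, 3963 and 2669 CPM of it and UV libraries 386, 192 and 209 CPM (log2 change −3.73, SE 0.30, adjusted p = 0.00208). Its UV minus control difference in the mean, −3226 CPM, was the largest shift of any called gene in either direction. Flg2, a filaggrin-related protein of the cornified layer, came next, from 2930, 2584 and 2853 CPM to 1147, 850 and 1288 CPM (−1.35, SE 0.16, adjusted p = 0.00491).

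Other leading genes also fell. Fcgbp, the gene of a secreted protein with mucin-like repeats, was at 247, 150 and 224 CPM in control and 29.7, 41.7 and 45.2 CPM in UV (−2.41). Cdh4 (R-cadherin) fell from 10.8 ± 1.30 to 2.45 ± 0.249 CPM (SD, n = 3 per group; log2 change −2.15), and the sodium-calcium exchanger gene Slc24a3 from 17.4 ± 1.64 to 4.45 ± 0.608 CPM (−1.97). Sema3d, a secreted guidance protein of the semaphorin family, was at 70.0, 69.7 and 46.2 CPM in control and 16.9, 14.1 and 22.3 CPM in UV (−1.80). In each of these genes the lowest control value stood above the highest UV value. The rule that chose the 30 leading genes admits none whose groups overlap.

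Igfbp3, a secreted binding protein that holds insulin-like growth factors, fell evenly: 35.1, 31.1 and 32.2 CPM in control and 10.5, 8.2 and 10.9 CPM in UV (log2 change −1.74, SE 0.12, adjusted p = 0.00111). Igfbp2, a relative with the same ligands, moved the other way, from 13.2, 8.87 and 14 to 33.8, 29.7 and 29.8 CPM (1.36, SE 0.16, adjusted p = 0.00491). Both calls were robust, and of the 19 insulin-like growth factor genes tested only the protease gene Pappa2 was also called (−0.78, a call that ended without control 1, control 2, UV 1 or UV 3, highest adjusted p 0.0991). Satb1, a chromatin organiser of epidermal differentiation and of T cells, fell from 13.3 ± 1.25 to 4.09 ± 0.803 CPM (−1.70). Il20ra, a receptor subunit for cytokines of the interleukin-20 family that act on keratinocytes, fell from 8.64 ± 2.42 to 2.38 ± 0.603 CPM (−1.86). The long noncoding RNA Miat fell from 27.5 ± 3.78 to 9.43 ± 2.52 CPM (−1.54).

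**Figure D2:**
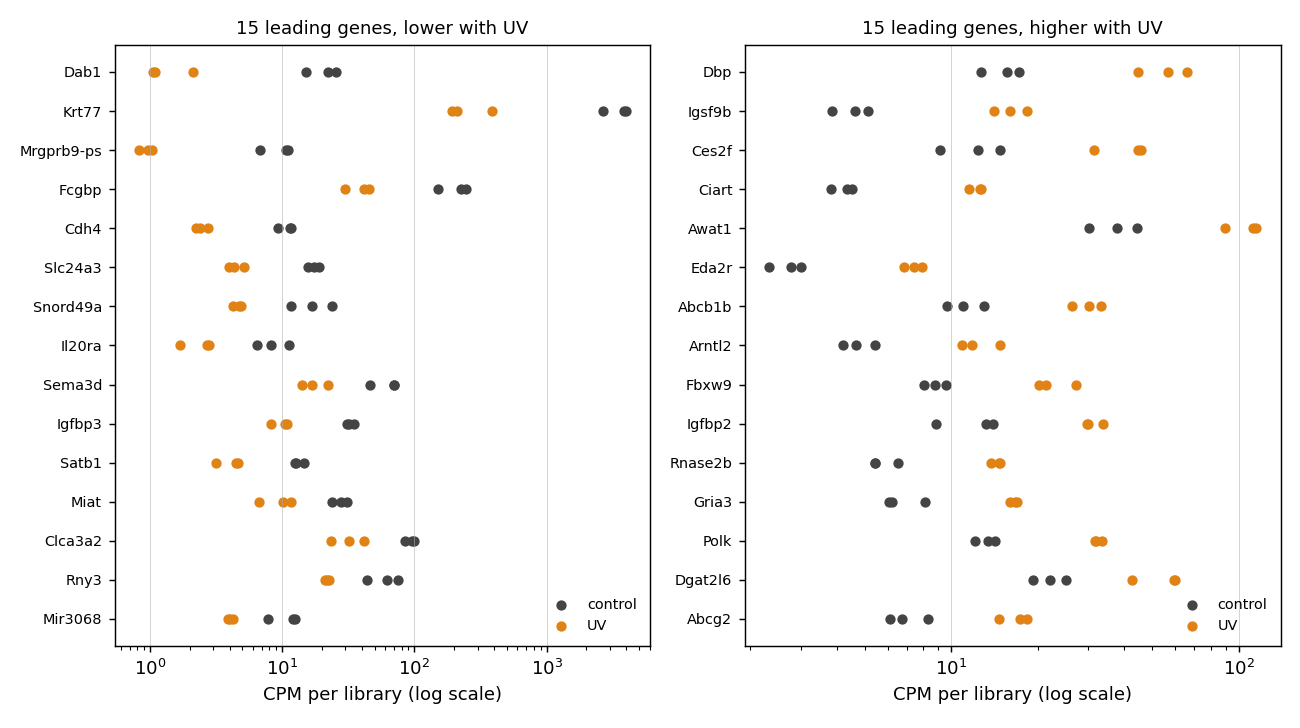
The 15 leading genes in each direction, by rule the robust genes of largest log2 change with a mean of at least 5 CPM; each dot is 1 input library, dark grey for the 3 control and orange for the 3 UV libraries, on a log scale of CPM. Dab1, Krt77 and Mrgprb9-ps show the widest gaps on the left, and Dbp, Igsf9b and Ces2f on the right.

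The leading genes that rose changed less, by between 2.38-fold (Abcg2) and 3.70-fold (Dbp). Igsf9b, an adhesion molecule of the immunoglobulin superfamily, was at 5.12, 4.63 and 3.85 CPM in control and 18.4, 16.0 and 14.1 CPM in UV (log2 change 1.83, SE 0.15, adjusted p = 0.00208). Gria3, a glutamate receptor subunit, rose from 6.79 ± 1.13 to 16.5 ± 0.428 CPM (1.29), and Rnase2b, a secreted ribonuclease, from 5.78 ± 0.638 to 14.4 ± 0.626 CPM (1.32). The UV libraries lay close together for both. Fbxw9, a substrate adaptor of ubiquitin ligases, rose from 8.79 ± 0.756 to 22.9 ± 3.80 CPM (1.37). The values of the IP libraries of the same skin samples, fitted separately, gave positive log2 changes for all 15, from 1.06 (Ciart, 1.55 in the input) to 1.87 (Ces2f, 1.74 in the input).

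Targets of p53, the transcription factor of the DNA damage response, gave the longest list of higher calls. Of 38 tested, 20 were called higher and 0 lower, against 3.02% and 2.81% of all genes tested, and 33 of the 38 had a positive change, with a median log2 change of 0.48 (all genes tested, −0.02). Robust calls numbered 6. The 20 became 7 without UV 1, 9 without UV 2, 8 without UV 3 and 11 without control 1, and 13 with library size alone. The list overlaps the genes known from earlier results of these libraries, so its count is a description.

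Polk, the polymerase that copies past bulky lesions in DNA, had the smallest standard error of the leading genes that rose. It was at 14.2, 12.1 and 13.4 CPM in control and 33.5, 31.9 and 31.5 CPM in UV (log2 change 1.29, SE 0.09, adjusted p = 0.00111). Eda2r, the receptor for an ectodysplasin isoform and a p53 target, rose from 2.33, 3.01 and 2.77 to 7.93, 6.84 and 7.41 CPM (1.46, SE 0.14, adjusted p = 0.0035). Ccng1, a cyclin that feeds back on p53 through Mdm2, rose from 42.1, 58.7 and 50.4 to 113, 92.5 and 99.1 CPM (1.01).

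The other 3 robust targets serve other steps. Ercc5, the nuclease that cuts on the 3′ side of the lesion in excision repair, rose from 40.2 ± 2.27 to 67.1 ± 3.56 CPM (log2 change 0.74, adjusted p = 0.00468). Plk2, a stress-responsive kinase, rose from 38.5 ± 3.89 to 69.0 ± 3.42 CPM (0.84), and Ei24, an endoplasmic reticulum protein, from 54.8 ± 4.40 to 90.5 ± 3.56 CPM (0.72). The classical arrest gene Cdkn1a (p21) rose by less, from 59.9, 57.9 and 55.5 to 77.8, 78.1 and 74.5 CPM (0.41, adjusted p = 0.0194, a call that ended without control 1 or any single UV library, highest adjusted p 0.0974). The level of Trp53 itself was 15.7, 16.0 and 14.5 CPM in control and 13, 11.4 and 12.5 CPM in UV (−0.32, adjusted p = 0.0818). That gene was looked up after its values were seen and is not called.

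Few genes of the repair machinery passed the test. Of 36 nucleotide excision repair genes 3 were called higher (8.33%, against 3.02% of all genes tested) and 0 lower, with 12 higher and 1 lower at an unadjusted p below 0.05, 27 positive changes and a median of 0.13. Their summed level was 1335, 1337 and 1352 CPM in control and 1522, 1543 and 1498 CPM in UV. Of the 3 calls, Ercc5 is robust; Ercc3 (0.40) and the ligase gene Lig1 (0.41) lost their calls without control 1 or any single UV library (highest adjusted p 0.121 and 0.115). Among 15 genes of translesion synthesis, Polk and Rev1, the scaffold of that pathway, were called, with Rev1 at 0.49 and its call ending without any 1 of the same 4 libraries (highest adjusted p 0.0978). With library size alone the excision repair and translesion lists had 1 call each. Of 40 cell cycle genes 1 was called (2.5%, below the 5.83% of all genes tested), and 2 were called without control 2 or control 3. It was cyclin E1 (Ccne1), which rose from 4.54 ± 0.110 to 7.85 ± 0.347 CPM (0.79, adjusted p = 0.00921, and 0.052 without UV 1).

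Several repressor genes of the circadian clock rose. Of 11 repressor genes 6 were called higher and 0 lower (54.5% called, against 5.83% of all genes tested). A positive change was seen in 9, with a median log2 change of 0.70, and the count stayed between 4 and 7 in the fits without 1 library. Of the 7 activator genes 2 were called higher and 2 lower. No label states the hour at which the skin was taken, and its part in these differences was not tested.

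Dbp, a transcription factor of the proline and acidic amino acid-rich (PAR) family that is driven directly by the clock, had the largest rise among the leading genes, all of which have a mean of at least 5 CPM. Control libraries held 12.7, 17.2 and 15.6 CPM and UV libraries 56.7, 44.6 and 65.9 CPM (log2 change 1.89, SE 0.16, adjusted p = 0.00229). Its relative Tef rose from 31.7 ± 1.87 to 52.9 ± 4.01 CPM (0.74, adjusted p = 0.00508). Ciart, a repressor of the Arntl-Clock complex, was at 4.33, 4.51 and 3.81 CPM in control and 12.7, 12.6 and 11.5 CPM in UV (1.55, SE 0.12, adjusted p = 0.00158). The UV libraries agreed closely for Ciart and spread more widely for Dbp.

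Per1 and Per3, period genes of the negative limb, rose from 26.5, 37.5 and 34.4 to 59.6, 83.4 and 68.6 CPM (1.11) and from 22, 21.2 and 18.8 to 36.9, 33.2 and 45.7 CPM (0.90). Nr1d2, the nuclear receptor REV-ERB beta, rose from 25.5 ± 1.88 to 44.2 ± 5.07 CPM (0.79). All 3 calls were robust. Per2 (1.00) and Nr1d1 (0.70) were called too but lost the call when control 1, UV 1 or UV 3 was left out (highest adjusted p 0.0776 and 0.0874).

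The activators did not share 1 direction. Arntl (BMAL1) was at 25, 23.0 and 26.0 CPM in control and 16.4, 16.8 and 15.8 CPM in UV (−0.60, SE 0.09, adjusted p = 0.00972, with calls lost without UV 1 or UV 3, up to 0.0582). Npas2 fell from 3.31 ± 0.306 to 1.27 ± 0.331 CPM (−1.41, lost without control 1, UV 2 or UV 3, highest adjusted p 0.0599). Arntl2 (BMAL2) rose from 4.19, 4.66 and 5.41 to 14.8, 11.8 and 10.9 CPM (1.39, SE 0.16, adjusted p = 0.00476, robust). Clock rose from 79.2 ± 12.5 to 117 ± 9.68 CPM (0.56), a call that ended without control 1 or any single UV library (highest adjusted p 0.149).

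Among the motifs through which the clock acts on DNA are the E-box CACGTG, bound by the activators, and the D-box TTATGTAA or TTATGCAA, bound by Dbp, Tef and their relatives. Both strands were searched, from 250 bases before to 50 after each RefSeq start. Of the 13 genes called in the clock lists, 12 have such a window, and 4 of them (33.3%) hold an E-box and 2 (16.7%) a D-box in at least 1 window. The E-box genes are Per1, Ciart, Tef and Fkbp5, which is on the list of clock output genes. The D-box genes are Per1 and Per3. Over all 27025 genes with a window the shares were 8.09% and 1.98%. The 13 were taken from lists of clock genes, so the difference in shares describes those lists and says nothing about UV. Clock genes that were not called were not searched. Arntl and Npas2, which fell, are among the 12 and hold neither motif. The CACGTG letters read the same on both strands, and no E-box overlapped a D-box. Windows of the 4 robust genes with a match, all higher in UV skin, are shown in the GRCm38.p6 build from RefSeq. They read 5′ to 3′ on the strand of the gene, with the motifs in capitals. They lie at chr11:69098746-69098948 (plus strand, Per1), chr4:151044779-151044907 (minus, Per3), chr3:95882230-95882381 (minus, Ciart) and chr15:81802509-81802588 (plus, Tef), all upstream of the start.
Per1: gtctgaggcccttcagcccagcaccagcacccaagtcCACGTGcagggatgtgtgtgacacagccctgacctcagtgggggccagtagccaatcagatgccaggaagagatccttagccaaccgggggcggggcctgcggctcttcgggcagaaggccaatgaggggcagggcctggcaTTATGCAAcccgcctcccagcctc
Per3: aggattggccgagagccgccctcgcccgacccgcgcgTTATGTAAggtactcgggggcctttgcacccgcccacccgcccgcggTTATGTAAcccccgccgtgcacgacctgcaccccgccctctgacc
Ciart: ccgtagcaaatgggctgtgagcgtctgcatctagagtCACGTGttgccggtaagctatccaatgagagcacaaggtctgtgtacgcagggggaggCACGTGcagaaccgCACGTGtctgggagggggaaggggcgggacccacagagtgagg
Tef: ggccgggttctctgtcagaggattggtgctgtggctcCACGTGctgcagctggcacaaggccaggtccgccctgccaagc

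Per1 has 2 windows, and the window not shown holds neither motif. The Per1 window shown belongs to a start inside the gene model, which begins at chr11:69095217. It holds an E-box beginning 166 bases before that start and a D-box beginning 24 bases before it. The Tef stretch shown also lies inside its gene model, which begins at chr15:81802421. The Ciart stretch overlaps its gene model, which reaches to chr3:95882251. Ciart has 3 E-boxes, at 116, 58 and 44 bases before the start, and Per3 has 2 D-boxes and no E-box. No match lies in these windows for Dbp, Nr1d2 or Arntl2, although all 3 rose, which says only that these letters are not in this stretch of their promoters.

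**Figure D3:**
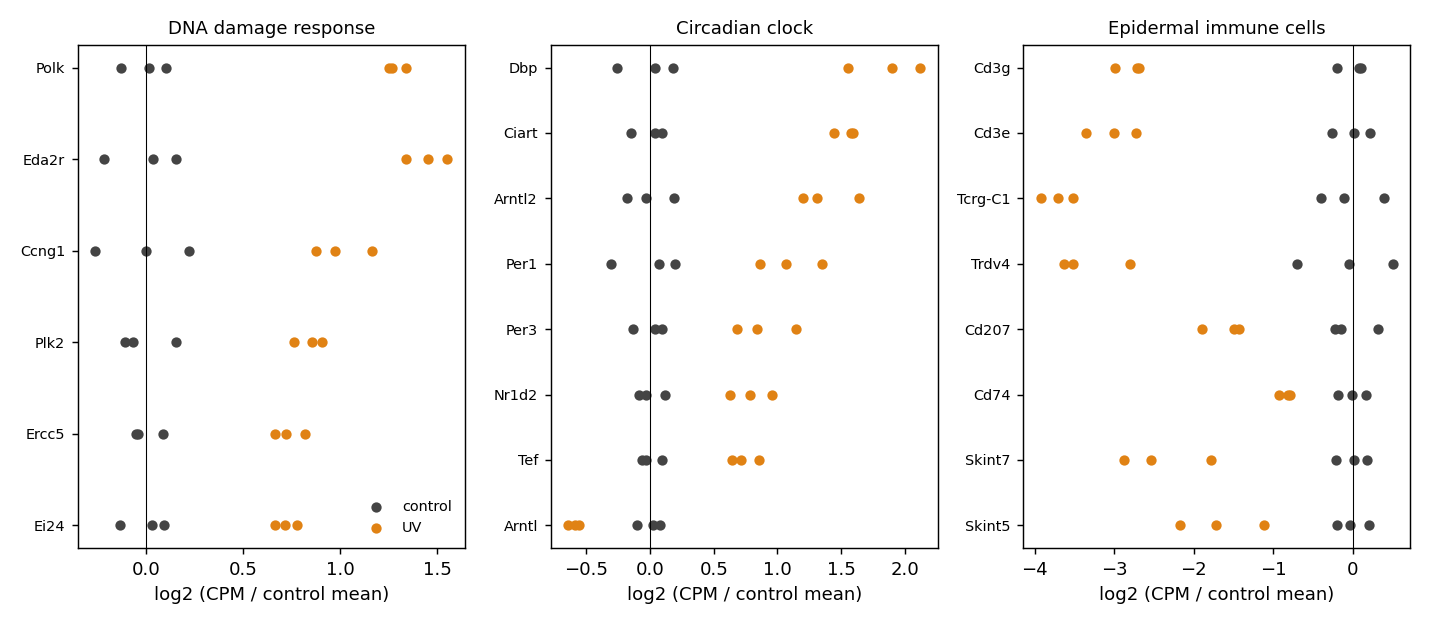
Each dot is 1 input library, dark grey for control and orange for UV, given on the x axis as the log2 of its CPM over the mean of the 3 control libraries. DNA damage genes (left) and most clock genes (centre) lie to the right of the control libraries, and Arntl lies to the left. Genes of epidermal T cells, Langerhans cells and the Skint family (right) lie to the left. Every gene shown was called, and all 1404 called genes had no overlap between the groups, as had 7476 of the 24099 genes tested.

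Several transcripts of epidermal gamma delta T cells fell. Of 24 such genes tested 8 were called lower and 0 higher (33.3% called, against 5.83% of all genes tested). Their median log2 change was −0.85, and 4 calls were robust. The 8 became 4 without UV 3 and 5 without UV 2. Cd3g, a signalling chain of every T cell receptor, had 296, 150 and 338 reads in the control libraries and 30, 35 and 52 in the UV libraries, or 4.78, 5.78 and 5.86 CPM against 0.852, 0.688 and 0.834 CPM (−2.79, SE 0.18, adjusted p = 0.00111). Cd3e, its partner chain, fell from 2.34, 2.85 and 3.26 to 0.426, 0.275 and 0.353 CPM (−3.01, SE 0.25, adjusted p = 0.00228).

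Receptor genes that define this lineage were among them. Tcrg-C1, a constant region of the gamma chain, was read 120, 62 and 195 times in control and 6, 10 and 14 times in UV (log2 change −3.67, SE 0.31, adjusted p = 0.00228). Trdv4, a variable segment of the delta chain, was read 60, 58 and 88 times in control and 8, 7 and 8 times in UV (−3.26, SE 0.42, adjusted p = 0.00696). Tcrg-V5 had 22, 13 and 16 reads in control and 0 in each of the UV libraries, where a count of 0 allows up to 3 reads per library by counting error alone, and more if both reads of a pair were counted. Its call ended without control 1 or UV 3 (highest adjusted p 0.0573). The delta constant region Trdc had 32, 26 and 54 reads in control and 6, 5 and 4 in UV (lost without UV 2 or UV 3, highest adjusted p 0.0663). Genes of the list that other skin cells also express, such as Thy1 (38.8 and 36.8 CPM) and Sox13 (19.3 and 18.5 CPM), had means close to each other in the 2 groups and were not called.

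A list of 18 alpha beta T, NK and B cell genes had 0 called by edgeR's test, with 1 higher and 1 lower at an unadjusted p below 0.05, 1 and 1 by DESeq2 and 0 by limma-voom; without control 3, 1 was called higher. The list summed to 41.1 to 47.8 CPM in every library, and the 3 B cell markers to at most 0.555 CPM. Ccr4, a chemokine receptor of skin-homing T cells, fell from 3.26, 3.01 and 2.91 to 0.909, 0.944 and 1.22 CPM (−1.57, SE 0.19, adjusted p = 0.00526, robust).

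Skint genes, butyrophilin-like genes of keratinocytes whose founding member selects these gamma delta T cells in the thymus, were measured too. Skint7 was at 7.95, 8.91 and 6.83 CPM in control and 1.36, 1.08 and 2.29 CPM in UV (log2 change −2.29, SE 0.26, adjusted p = 0.00478, robust), and Skint5 fell from 32.1, 37.9 and 28.6 to 10, 7.31 and 15.1 CPM (−1.60, adjusted p = 0.0118, lost without UV 1 at 0.064). Of the 11 members tested these 2 were called. Without UV 1 it was 1, without UV 3 it was 4, and with library size alone 6, all lower, while without control 3 it was 1 higher and 2 lower. Skint1 itself, at 52.4 CPM in control and 36.1 CPM in UV, was not called (−0.54, adjusted p = 0.131). Reads of these similar neighbours on chromosome 4 may be shared between members.

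Antigen-presenting cells gave the same direction. Among 22 genes of Langerhans cells, dendritic cells and major histocompatibility complex (MHC) class II, 8 were called lower and 0 higher, with a median of −0.45. That is 36.4% called, against 5.83% of all genes tested. The 8 became 2 without UV 1 or UV 3, and 3 without UV 2 or control 1. Cd207 (langerin), the defining gene of Langerhans cells, was at 4.01, 3.82 and 5.55 CPM in control and 1.59, 1.20 and 1.65 CPM in UV (log2 change −1.60, SE 0.21, adjusted p = 0.0074). Cd74, the invariant chain of MHC class II, fell from 60.3, 77.4 and 68.5 to 39.7, 36.2 and 39.0 CPM (−0.84, SE 0.10, adjusted p = 0.00573). These 2 calls were robust. Those of H2-Aa (−0.66), H2-Ab1 (−0.53) and the class II activator Ciita (−0.62) ended without control 1 or any single UV library (highest adjusted p 0.0954, 0.0841 and 0.103).

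Macrophage genes were lower in part, with 6 of 24 called lower, 0 higher and a median of −0.24. None of the 6 was robust: the count was 0 without UV 1 or UV 3, 1 without UV 2 and 2 without control 1. The macrophage markers summed to 83.0, 91.7 and 120 CPM in control and 78.7, 95.4 and 77.8 CPM in UV, with overlapping groups. Lyz2 (lysozyme) was at 47.1 ± 4.13 CPM in control and 33.1 ± 2.80 CPM in UV (−0.51, adjusted p = 0.0255, a call that ended on leaving out control 1 or any UV library, highest adjusted p 0.119). Neutrophil markers overlapped too, at 21.2 to 42.1 CPM in control and 41.0 to 56.2 CPM in UV.

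Keratin and cornified envelope genes were called in both directions. Of 46 suprabasal genes 5 were called higher and 4 lower (14 and 4 at an unadjusted p below 0.05), and 29 had a positive change, with a median of 0.18. Robust calls were Krt77 and Flg2, lower, and Tgm3, higher. Tgm3, the transglutaminase that cross-links envelope proteins, was at 43.9, 37 and 54.0 CPM in control and 116, 94.4 and 109 CPM in UV (log2 change 1.24, SE 0.14, adjusted p = 0.00478). The 5 higher calls became 2 without control 2, and the 4 lower calls 2 without control 1, UV 1 or UV 3. The other 4 higher calls, among them the protease inhibitor gene Spink5 (928 to 1717 CPM in control and 2092 to 2642 CPM in UV, 0.92, highest adjusted p 0.168, lost without control 2 too) and the very-long-chain lipid elongase gene Elovl4 (0.69, highest adjusted p 0.124), were lost without control 1 or any single UV library, and 12 genes were called higher without control 3.

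Of 35 late cornified envelope and small proline-rich genes, Lce1m alone was called. It fell from 74.4, 68.6 and 69.2 to 31.1, 21.7 and 33.6 CPM (−1.30, SE 0.15, adjusted p = 0.00491, robust), while 24 of the 35 had a positive change. Without control 3, 5 of the list were called higher, and without control 2, 3 were called lower. Itgb4, the hemidesmosome integrin that anchors basal cells, rose from 111, 89.5 and 121 to 251, 222 and 185 CPM (1.03, SE 0.14, adjusted p = 0.00863, robust). Lgr6, a receptor for R-spondins and a marker of stem cells of the upper hair follicle, fell tightly from 23.5, 22 and 22.8 to 13, 12.9 and 11.8 CPM (−0.86, SE 0.09, adjusted p = 0.00353, robust). Wnt genes gave 3 higher and 6 lower calls of 46, of which Lgr6 and the secreted antagonist Sfrp2 (1.17) were robust; without UV 1 or control 1 the counts were 1 and 1, and without UV 2 or UV 3 they were 1 and 2.

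Several sebaceous gland lipid genes rose. Of 30 tested 12 were called higher and 0 lower (40.0% called, against 5.83% of all genes tested), with 19 and 2 at an unadjusted p below 0.05. A positive change was seen in 25, with a median log2 change of 0.55 and 5 robust calls. The 12 dropped to 5 when control 1, UV 1 or UV 2 was left out. Their summed level was 3798 to 5643 CPM in control and 7536 to 9604 CPM in UV. Awat1, which makes wax esters, was at 37.7, 30.1 and 44.3 CPM in control and 115, 112 and 89.7 CPM in UV (1.49, SE 0.15, adjusted p = 0.00367). Dgat2l6, an acyltransferase of the same family, rose from 22, 19.3 and 25.1 to 59.9, 59.5 and 42.7 CPM (1.28).

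Far2, which reduces fatty acids to the alcohols of wax esters, rose from 175 ± 7.55 to 310 ± 24.0 CPM (0.82, adjusted p = 0.00423). Soat1, which esterifies cholesterol, and Plin2, which coats lipid droplets, rose from 151 ± 13 to 295 ± 41.2 CPM (0.96) and from 58.7 ± 8.47 to 115 ± 11.6 CPM (0.97). UV replicate 3 was the lowest of the UV libraries in all 5 robust genes. Scd1, the desaturase that marks sebocytes, gained 568 CPM in the mean, from 916 ± 177 to 1484 ± 110 CPM (0.70, adjusted p = 0.0358, a call that ended on leaving out control 1 or any UV library, highest adjusted p 0.145). The fat cell list gave 6 higher calls of 24 (1 on leaving out control 1, UV 1 or UV 2, and 3 on leaving out UV 3), of which the lipid droplet gene Plin4 was robust, from 42.2, 36.1 and 40.4 to 69.8, 76.6 and 61.6 CPM (0.81). Cholesterol synthesis genes gave 4 higher calls of 24, and 0 without control 1 or any single UV library.

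Several genes that handle foreign compounds rose. Of 35 carboxylesterase and drug metabolism genes 9 were called higher and 1 lower (28.6% called, against 5.83% of all genes tested, median 0.32). Without UV 1 or UV 2 the 9 became 3, and without control 1 or UV 3 they became 4. Ces2f, a carboxylesterase, was at 9.13, 12.4 and 14.8 CPM in control and 45.8, 31.3 and 44.6 CPM in UV (log2 change 1.74, SE 0.20, adjusted p = 0.00478). Its neighbours Ces2e (1.69) and Ces2g (1.66) on chromosome 8 were called as well but not robustly (highest adjusted p 0.113 and 0.13, lost without control 1 or any single UV library, and for Ces2e without control 2), and reads of these similar genes may be shared. Ephx1, the microsomal epoxide hydrolase, rose from 28.5, 31.8 and 29.4 to 64.1, 56.2 and 65.8 CPM (1.05, SE 0.09, adjusted p = 0.00229), and Aldh3a1, an aldehyde dehydrogenase, from 12.7 ± 0.944 to 23.3 ± 1.28 CPM (0.87). The sulfotransferase gene Sult5a1 fell, from 5.48 ± 0.804 to 2.20 ± 0.307 CPM (−1.31). The 4 single-gene calls of Ces2f, Ephx1, Aldh3a1 and Sult5a1 were robust.

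A pair of efflux pumps rose with them. Abcb1b, a P-glycoprotein gene, was at 9.66, 11 and 13 CPM in control and 33.1, 26.4 and 30.1 CPM in UV (1.41, SE 0.13, adjusted p = 0.00342), and Abcg2, the breast cancer resistance protein gene, at 6.11, 6.75 and 8.28 and 18.4, 14.7 and 17.4 CPM (1.25, SE 0.14, adjusted p = 0.00478). Antioxidant and glutathione genes were called in both directions. Of 44, 2 were called higher and 3 lower (median 0.08), with 13 and 6 at an unadjusted p below 0.05 and 7 and 3 by DESeq2. The counts were 10 higher and 1 lower without control 3, 0 and 2 without control 1, 1 and 0 without UV 2 or UV 3, and 0 without UV 1. Gsto1, an omega-class glutathione transferase, had the largest change, from 13.4, 10.9 and 23.0 to 65.9, 41.9 and 60.5 CPM (1.82, lost without control 1 or UV 1, highest adjusted p 0.0563).

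In the dermis, matrix genes moved both ways and few of the calls were robust. Fibroblast and proteoglycan genes gave 3 higher and 9 lower calls of 43, with a median of −0.24. The fibroblast marker sum was lower in every UV library than in any control library. That sum is mostly collagen: Col1a1, Col1a2 and Col3a1 gave 4030, 2310 and 2922 of its 9422 CPM in control 1. Of its other genes, Dcn was called lower (−0.77, adjusted p = 0.0133). Pdgfra overlapped between the groups and was not called (−0.13, adjusted p = 0.645). The 9 lower calls of the list became 0 without UV 1, 3 without UV 2 or control 1 and 5 without UV 3, while the 3 higher calls were robust. Crabp1, a retinoic acid binding protein of dermal papilla and other fibroblasts, was at 7.38, 6.17 and 8.77 CPM in control and 17.8, 18.8 and 16.5 CPM in UV (log2 change 1.24, SE 0.14, adjusted p = 0.00441). Sfrp2, a Wnt antagonist, rose from 1.99, 1.97 and 2.01 to 4.49, 5.03 and 3.93 CPM (1.17), and Ltbp2, a microfibril-associated protein, from 4.99 ± 0.801 to 10.6 ± 1.07 CPM (1.10).

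Col12a1, a collagen that decorates fibrils, was the robust collagen call, from 151, 134 and 151 to 223, 266 and 222 CPM (0.71, SE 0.10, adjusted p = 0.00967). Of 23 collagens 3 were called higher and 6 lower, and the 6 dropped to 0 when control 1, UV 1 or UV 2 was left out and 1 without UV 3, with 1 higher call without any single UV library. Fast skeletal muscle genes had a median of −1.08 with 2 of 26 called lower, and 8 with library size alone. The 2, Pvalb and Actn3, were highest in control 2 (90.2 and 181 CPM), and 0 of the list were called without control 1 or any single UV library, 1 without control 2 and 4 without control 3. Virma (KIAA1429, listed as 1110037F02Rik), the m6A writer subunit of the study’s title, was at 82.5, 98.6 and 90.3 CPM in control and 104, 115 and 114 CPM in UV (0.29, adjusted p = 0.0937). Mfap4, the microfibril gene of the title, was at 17.5, 14.5 and 13.3 and 8.04, 7.88 and 12.1 CPM (−0.69, adjusted p = 0.0634). Neither was called.

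Several neighbouring paralogs on chromosome 7 fell. Mrgprb9-ps, a pseudogene of the Mas-related receptors of itch neurons and mast cells, was a leading gene at 10.6, 11.1 and 6.79 CPM in control and 0.966, 0.826 and 1.04 CPM in UV (log2 change −3.32, SE 0.23, adjusted p = 0.00111). Around it, within chr7:48444113-48685614 (GRCm38), Mrgprb3 fell from 3.41, 3.59 and 2.22 to 0.511, 0.531 and 0.481 CPM (−2.58, adjusted p = 0.0035) and Mrgprb11-ps from 106, 60 and 78 reads to 0, 2 and 6 reads (adjusted p = 0.00389), both robust. Mrgprb2, the mast cell member, had 42, 29 and 40 reads in control and 2, 8 and 8 in UV (−2.74, lost without UV 1 or UV 3, highest adjusted p 0.0573). Other members did not follow: Mrgprb1 (0.89, adjusted p = 0.369) and Mrgprx2 (0.41, adjusted p = 0.55) were not called. Mast cell markers summed to 6.27 to 9.64 CPM in control and 10.4 to 14.2 CPM in UV. Mrgprb3 and Mrgprb11-ps were picked after their values were seen.

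Of 5 neighbouring Clca genes on chromosome 3, 2 were called, both lower. Clca3a2, a secreted metalloprotease-like modifier of chloride channels, was at 95.4, 85.3 and 99.7 CPM in control and 23.2, 31.9 and 41.8 CPM in UV (−1.53, SE 0.19, adjusted p = 0.00587), and its near copy Clca3a1, picked after its values were seen, fell from 11.6 ± 0.459 to 5.75 ± 0.830 CPM (−1.01, adjusted p = 0.00636, robust). Clca2, farther along, was at 39.1 ± 6.55 and 33.8 ± 6.61 CPM and was not called (−0.21, adjusted p = 0.468), nor were Clca3b (−1.49, adjusted p = 0.12) and Clca1 (−1.87, adjusted p = 0.193). Olfactory receptor genes, mostly silent outside the nose, gave 29 tested members of 1409 and 6 calls, all higher; 3 were called without UV 1, UV 2, UV 3 or control 1. The robust 3 are neighbours on chromosome 7. Olfr544 rose from 42, 14 and 33 reads to 95, 118 and 147 reads, or 0.679, 0.54 and 0.572 CPM to 2.70, 2.32 and 2.36 CPM (2.02, SE 0.20, adjusted p = 0.00367). Olfr543 (1.45) and Olfr545 (2.02) rose beside it.

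Genes that carry positional identity also differed. Hoxb9, a posterior member of the Hox family, was at 1.33, 1.81 and 1.87 CPM in control and 4.60, 5.90 and 7.10 CPM in UV (log2 change 1.83, SE 0.21, adjusted p = 0.00491, robust). Pitx1, which specifies hindlimb identity and was picked after its values were seen, was at 0.436, 0.54 and 0.832 CPM in control and 5.31, 3.26 and 5.55 CPM in UV (2.94, SE 0.31, adjusted p = 0.00389, robust). Of 29 Hox genes tested 3 were called higher and 1 lower, and 1 higher and 0 lower without control 1, control 2 or any single UV library, and 4 and 3 without control 3. Hoxb8, beside Hoxb9, was at 9.94 ± 0.830 and 10.9 ± 1.70 CPM (0.14, adjusted p = 0.572). No label states the body site of the skin samples, and its part in these values was not tested.

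A few transcripts had few or no reads in 1 of the groups, and these were picked after their values were seen. Gm5724, a coding gene on chromosome 6, had 0, 2 and 1 reads in the control libraries and 85, 91 and 129 in the UV libraries (adjusted p = 0.00228, robust). Mucl1 had 66, 34 and 114 reads in control and 2, 0 and 2 in UV (adjusted p = 0.00387, robust), and the noncoding RNA Gm19950 had 38, 15 and 24 reads in control and 0 in each UV library (adjusted p = 0.00852, robust). All 3 gave the same direction in the IP libraries.

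**Figure D4:**
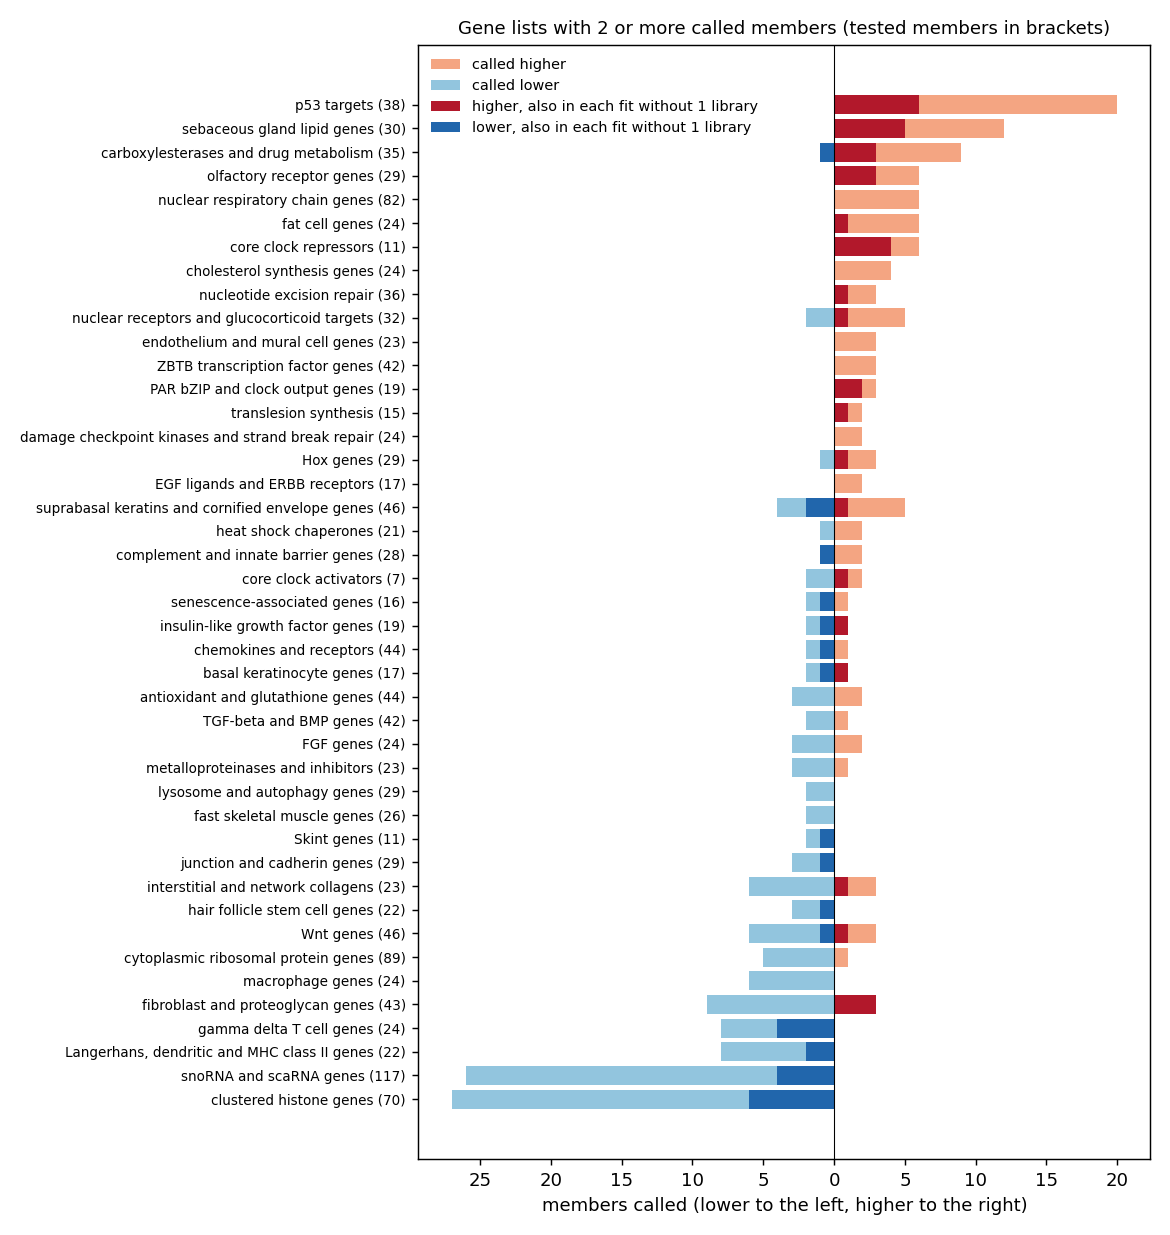
For each gene list with at least 2 called members, bars to the right count members called higher in UV skin and bars to the left those called lower, with the number of tested members in brackets; the darker part of a bar, from 0 outwards, counts the robust calls. The p53 list reaches 20 on the right, and the histone and snoRNA lists 27 and 26 on the left.

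The 2 longest lists of lower genes were not of the usual polyadenylated kind. Of 70 clustered histone genes tested, whose transcripts end in a stem loop in place of a poly(A) tail, 27 were called lower and 0 higher. That is 38.6% called, against 5.83% of all genes tested, with a median log2 change of −0.53 and 6 robust calls. The 27 became 7 without UV 1, 8 without UV 2 or UV 3 and 9 without control 1. Hist1h2ab was at 26.4, 21.3 and 26.1 CPM in control and 10.8, 12.4 and 10.6 CPM in UV (−1.13, SE 0.11, adjusted p = 0.00367), and the linker histone gene Hist1h1a at 37.7, 37.7 and 38.8 and 23.7, 25.1 and 24.0 CPM (−0.65, SE 0.07, adjusted p = 0.00478). Near-identical histone genes can share reads, so single members are uncertain.

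Among 117 small nucleolar and Cajal body RNA genes, guides for the modification of other RNAs, 26 were called lower and 0 higher, with a median of −0.59. That is 22.2% called, against 5.83% of all genes tested. The 26 became 5 without any single UV library. Snord49a was at 23.8, 11.7 and 16.7 CPM in control and 4.86, 4.70 and 4.23 CPM in UV (−1.93, SE 0.24, adjusted p = 0.00549), Snora61 at 97.8, 156 and 154 and 55.9, 55.9 and 54.7 CPM (−1.29), and Snord17 at 31.8, 34.5 and 41.8 and 18.8, 16.7 and 18.3 CPM (−1.01). The UV libraries lay within a narrow band for each, whereas the control libraries spread. The Y RNA gene Rny3 (60.3 ± 16.1 to 21.9 ± 0.752 CPM, −1.46), the miRNA gene Mir3068 (10.7 ± 2.56 to 4.06 ± 0.190 CPM, −1.40) and the mitochondrial tRNA gene mt-Te (8.33 ± 0.525 to 4.39 ± 0.567 CPM, −0.92) gave the same direction and were robust. These genes lie within or beside longer ones, and reads of a host transcript cannot be told apart from theirs here.

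By class, 664 small or structural RNA genes gave 1 higher and 78 lower calls (11.9% called, median −0.39), against 587 higher and 374 lower for 15696 coding genes (6.12%, median 0.00). Calls differed by length as well. Gene models under 200 bases gave 10 higher and 106 lower calls of 1093 tested, with a median of −0.31, and those from 200 to 500 bases 24 higher and 82 lower of 1505. From 2000 to 5000 bases there were 316 higher and 200 lower calls of 9143, with a median of 0.00.

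In the IP libraries of the same skin samples, fitted separately, 570 of 22789 genes were called, or 2.5%. Under 200 bases 2 were called higher and 1 lower of 761, with a median of −0.04. The UV change of Snord49a was 0.07 there, that of Rny3 −0.12, that of Snora61 −0.16 and that of Hist1h2ab −0.37, while Dab1 (−3.94), Krt77 (−3.86) and Cd3g (−2.93) were close to their input values. The lengths are those of the gene models in the deposited table. The part of RNA size and of library preparation in the short-gene result was not tested.

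**Figure D5:**
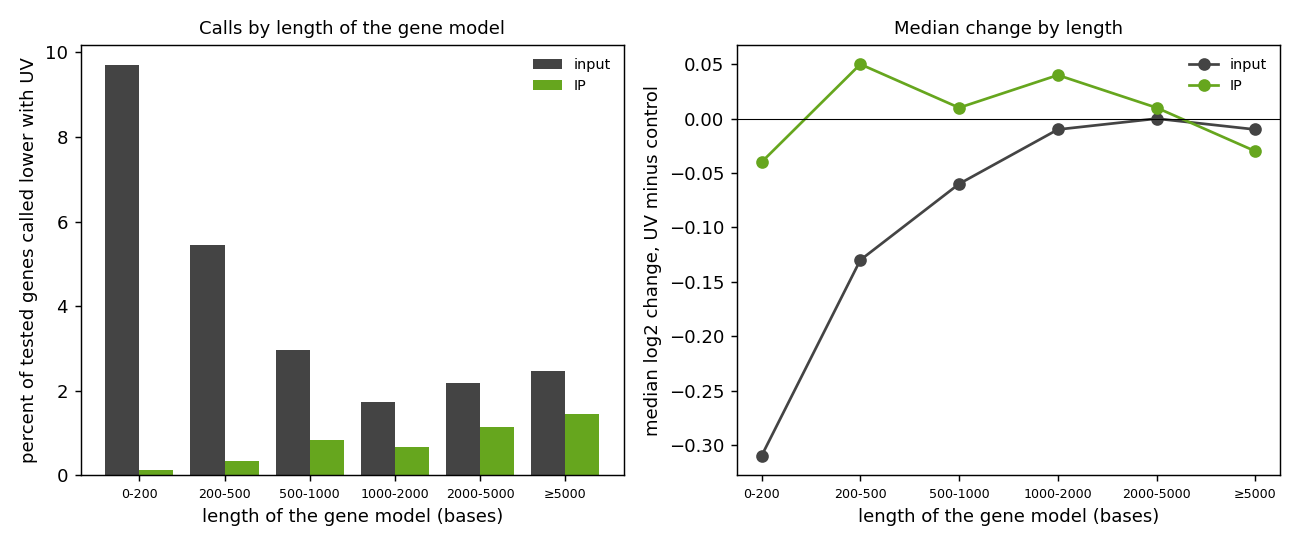
Left, the percent of tested genes called lower in UV skin, by length of the gene model in bases, for the input libraries (dark grey bars) and the IP libraries (green bars); right, the median log2 change, UV minus control, in the same bins. Input medians run from −0.31 under 200 bases to 0.00 between 2000 and 5000 bases, whereas IP medians stay between −0.04 and 0.05.

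Other groups often tied to UV exposure had no call by edgeR's test. Of 27 immediate early and AP-1 genes 0 were called (3 higher and 5 lower at an unadjusted p below 0.05; 1 and 4 by DESeq2; 0 by limma-voom; 1 and 2 without control 3; 2 lower with library size alone). Of 32 interferon response genes 0 were called (2 and 1 unadjusted; 0 by DESeq2 and limma-voom; 1 higher without control 3). Of 14 melanocyte genes 0 were called, with 4 lower unadjusted, 2 lower by DESeq2, 0 by limma-voom and 1 lower without control 3 or with library size alone. The stress keratins and wound genes had a median of 0.59 with 0 of 19 called (3 higher unadjusted; 1 higher by DESeq2 and by limma-voom), but 8 were called higher without control 3. The 25 genes of the m6A machinery gave 0 calls, with 2 higher unadjusted and 0 by DESeq2 and limma-voom. Hair shaft genes had a median of −0.56 with 0 of 36 called (1 higher and 9 lower unadjusted; 1 and 5 by DESeq2; 0 by limma-voom; 4 lower without control 3, 1 higher without UV 1 and 2 lower with library size alone).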

How the data were processed

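Transcript levels came from whole-number read counts per gene, deposited by the authors in 1 table with a length for each gene model; they are raw counts, not normalized. Reads were aligned with STAR 2.5.3a to GRCm38, per the submitters' processing notes; the counting tool and its strand setting are not stated. Most counts are even numbers (79.8% to 83.0% of counts from 1 to 20), so reads of a pair may each have been counted, and the reads printed here are the deposited counts.

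The 3 UV and 3 control input libraries were compared without pairing by edgeR 4.0.16 (R 4.3.3): filterByExpr, TMM scaling, the quasi-likelihood test and Benjamini-Hochberg adjustment over all genes tested. CPM was computed by edgeR from reads in genes after TMM scaling. Groups come from the labels. No label states that same-numbered control and UV libraries are pairs. Their deviations from the group means had correlations of −0.0737, 0.0675 and −0.183. With 3 libraries a group these values cannot decide whether the numbers mark pairs. Other settings were RLE scaling, library size alone, other filters, a replicate block, all 12 libraries in 1 fit, each library left out, limma-voom (limma 3.58.1) and DESeq2 1.42.0. The comparison with the IP libraries and by gene length was added after seeing the data.

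The members and lists were chosen with earlier results of these data known. The rule named the 15 robust genes of largest change in each direction with at least 5 CPM and no overlap between the groups, leaving out clone-type names, then up to 6 robust genes of a list, or called ones until 2 were named, Virma and Mfap4, markers, and the 5 largest shifts in CPM each way. Other list members named were chosen after their values were seen. Gene classes and promoters come from RefSeq (GRCm38.p6), which matched 19974 of the genes tested. Of the 62 lists not all are described; those with at least 2 calls are plotted.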

Additional observations from a re-analysis of the deposited data

Results flagged for a closer look

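For 4 of the 30 leading genes, the UV change in the IP libraries differed from that in the input libraries, by a test of the difference in edgeR with the sample as a block, which was added after seeing the data. The difference, IP minus input, was 2.01 on the log2 scale for Snord49a (SE 0.30, adjusted p = 0.000628; input −1.93, IP 0.07). It was 1.41 for Rny3 (SE 0.16, adjusted p = 4.2e-05; input −1.46, IP −0.12) and 1.38 for Mir3068 (SE 0.24, adjusted p = 0.00312; input −1.40, IP 0.00). For Awat1 it was −0.30 (SE 0.07, adjusted p = 0.0402; input 1.49, IP 1.21). Without the block the 4 adjusted p-values were 0.187, 0.848, 0.501 and 1.0. Over all 25022 genes tested this way, 399 were called with the block and 3 without it. Of the 399, 207 are among the 1404 genes called in the input libraries, which enter both tests.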

How the results depend on the processing

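The number of genes called depended on the processing. Beside 1404 calls (728 higher, 676 lower), no filter on low counts gave 2152 (1104 and 1048), DESeq2 gave 2601 (1343 and 1258), all 12 libraries in 1 fit gave 2143 (1196 higher) and a limit of 2-fold gave 512 (178 and 334). A replicate block gave 713 (369 and 344). With library size alone 455 were higher and 1019 lower. Fits without 1 library gave 219 to 2100 calls, 101 to 1237 higher and 118 to 863 lower. The causes were not tested. The 30 leading genes kept their direction and their call in all 420 checks over 14 settings, with a highest adjusted p of 0.042, which the rule that chose them fixes for the fits without 1 library. Among all 142 genes named by rule, 57 lost their call without UV 1, 48 without UV 2, 50 without UV 3 and 47 without control 1. Without control 2 it was 10, without control 3 it was 4, under the replicate block 25 and with library size alone 10. A direction was reversed in 0 of 1987 checks, but all of these genes except Virma and Mfap4 were chosen as called in these libraries. Genes with few reads, such as those of T cell receptors, have wide errors at these depths, and intervals cover only the spread of 3 libraries a group.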

Other observations

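Beside the genes above, the called genes with the largest differences in mean level, UV minus control, were Ncl (755 CPM), Elovl4 (432 CPM) and Iffo2 (308 CPM) among those higher and AC099934.1 (−920 CPM), Col1a2 (−628 CPM) and Rnu3b3 (−407 CPM) among those lower. None of these 6 calls was robust: each ended without UV 1 or UV 3, among others (highest adjusted p 0.143 for Ncl, 0.124 for Elovl4, 0.0812 for Iffo2, 0.0758 for AC099934.1, 0.194 for Col1a2 and 0.111 for Rnu3b3).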
